A study of Mus musculus with 6 samples.

Results

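The SLC25 family, the carrier proteins of the inner mitochondrial membrane, was followed gene by gene in infarct scars of the mouse left ventricle. Members were the rows of the deposited count table whose gene symbol begins with Slc25a and a number, 41 of 14798 genes, and all 41 passed the filter on low counts, which left 14771 genes tested. The scars came from mice whose left anterior descending artery was operated on at 10 weeks of age, and tissue was taken 6 weeks after the infarction; the source label puts the mice at 14 to 16 weeks. The 3 control libraries are labelled Sox9 fl/fl. The 3 deletion libraries are labelled Sox9 fl/perCre, where Cre is stated to remove Sox9 from fibroblasts only, and the state of the second Sox9 allele is not spelled out. Both groups carry a floxed Sox9 allele and an infarct, and no uninjured heart was analysed here. The promoter that drives the Cre is not written out in the labels. Whether each library is a separate animal is not stated, so p-values measure the spread between these samples alone, and that may be technical. The series title concerns fibrosis and inflammation of the infarcted heart once fibroblasts lose Sox9, and the carriers were measured in the same scars.

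SLC25 carriers move metabolites that the inner membrane would otherwise hold back. They bring ADP and phosphate in and ATP out, exchange the acids and amino acids of the malate-aspartate shuttle, import acylcarnitines for beta-oxidation, and supply iron, coenzyme A, S-adenosylmethionine, pyrimidine nucleotides and glutathione. Cardiac muscle is rich in mitochondria and Slc25a4 is its main ADP/ATP carrier, whereas Slc25a5 is the form of proliferating and non-muscle cells. A scar holds fibroblasts, leukocytes and vessels beside surviving cardiomyocytes, and in such bulk tissue fewer cells of a type and less RNA per cell cannot be told apart.

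Total counts ran from 18538171 to 55523974 per library. The targeted gene Sox9 was at 71.1, 75.8 and 67.7 CPM (counts scaled to a common library size with edgeR's TMM factors, as everywhere below) in the control group, against 42.1, 51.7 and 55.8 CPM in the deletion group. The groups did not overlap, and the log2 fold change, deletion minus control, was -0.52 ± 0.15 (SE; edgeR adjusted p = 0.564). Counts cover the whole gene, so recombined transcripts may be included. In 4 libraries, replicates 2 and 3 of both groups, every count is an even number, and in replicate 1 of both groups about as many are odd as even; this split is used below as a batch, which no label names. Deletion replicate 1 lay far from the other libraries on the first principal component, which held 57.2% of the variance. Control replicate 3 had the X-inactivation transcript Xist at 812 CPM against at most 7.61 CPM elsewhere. Ddx3y, a gene of the Y chromosome, was at 0.596 CPM there and at 122 to 146 CPM in the other libraries. By these genes control replicate 3 is female and the other libraries are male, so sex is not balanced between the groups. The ribosomal RNA precursor Rn45s was at 12176 and 22484 CPM in replicate 1 of the control and the deletion group, and at 623 to 1004 CPM in the other libraries.

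Levels of the carriers spanned from 2408 CPM per kb of transcript for Slc25a4 down to 0.214 for Slc25a31, as means over the 6 libraries. After Slc25a4 came the phosphate carrier Slc25a3 at 240.3, Slc25a5 at 184 and the oxoglutarate carrier Slc25a11 at 86.9 CPM per kb. The aspartate/glutamate carriers Slc25a12 and Slc25a13 followed at 42.7 and 38.9, the acylcarnitine carrier Slc25a20 at 37.7 and the ATP-Mg/phosphate carrier Slc25a23 at 31.5 CPM per kb. Slc25a12, Slc25a13 and Slc25a20 are closer to each other than their spread over libraries, so their order is not settled. Slc25a4, Slc25a3 and Slc25a5 together made up 78.4% to 84.9% of the summed carrier level per kb in the controls and 84.3% to 89.0% in the deletion scars. Not divided by length, 7 members had a mean above 100 CPM, 25 lay between 10 and 100 CPM and 9 lay below 10 CPM, and none was at 0 in any library.

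**Figure D1:**
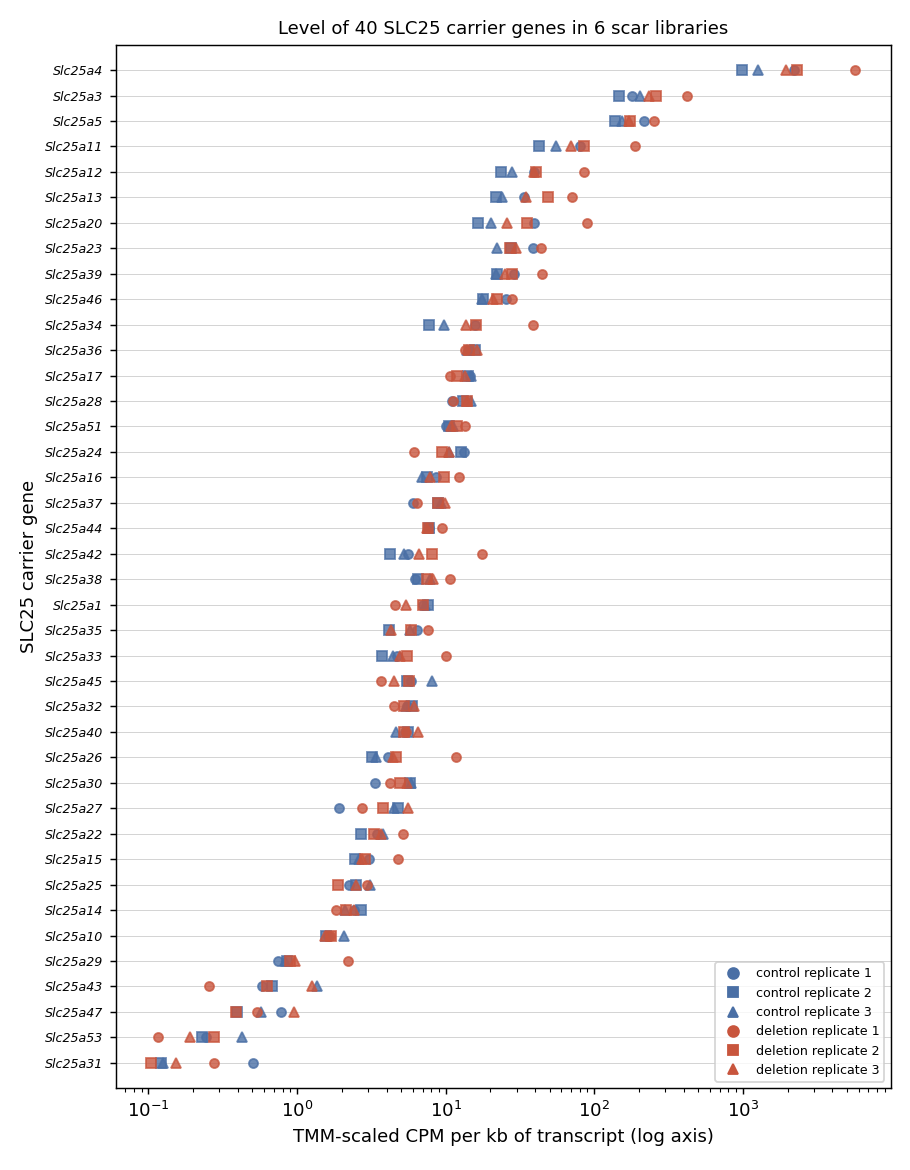
Level of 40 SLC25 genes in each of the 6 libraries, in TMM-scaled CPM per kb of transcript on a log axis; symbols give the replicate and colours the group. Slc25a4, at a mean of 2408 CPM per kb, stands about a decade above Slc25a3 (240.3) and Slc25a5 (184), and deletion replicate 1 holds the highest value for most of the abundant carriers.

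The carriers tended to lie higher in the deletion scars, without a call for any of them. A positive log2 fold change was seen in 29 of 41 members (70.7%), against 47.6% of all genes tested, and the median over members was 0.19 against -0.02 over all genes. The edgeR quasi-likelihood test called no member at an adjusted p of 0.05, and 0.0% of all genes; the lowest adjusted p of a member was 0.564. Unadjusted, 5 members had p below 0.05, among them Slc25a3, Slc25a12, Slc25a13 and Slc25a42. Each had the higher mean with the deletion, as had 5.3% of all genes at that p, and 3.04% of all genes had the lower. Every deletion library lay above every control library in 8 members (among them Slc25a3, Slc25a12, Slc25a13, Slc25a26, Slc25a29, Slc25a33 and Slc25a42), where 8.87% of all genes do so. Every deletion library lay below in 2, Slc25a17 and Slc25a24, where 8.6% do so. Deletion replicate 1 was the highest of the 6 libraries in 23 members, and in 33.3% of all genes. Without it the members' median was 0.09, and without control replicate 1 it was 0.31. Within the batch, the replicate 1 pair had a median of 0.34 with 30 members positive, and replicates 2 and 3 had 0.10 with 28 positive, against 45.0% of all genes positive there. Signs in the pair and in replicates 2 and 3 differed for 8 members. Scaled by library totals alone, the median of all genes shifted by -0.14; 23 members were then positive, and 29 lay above the shifted median, as with TMM.

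**Figure D2:**
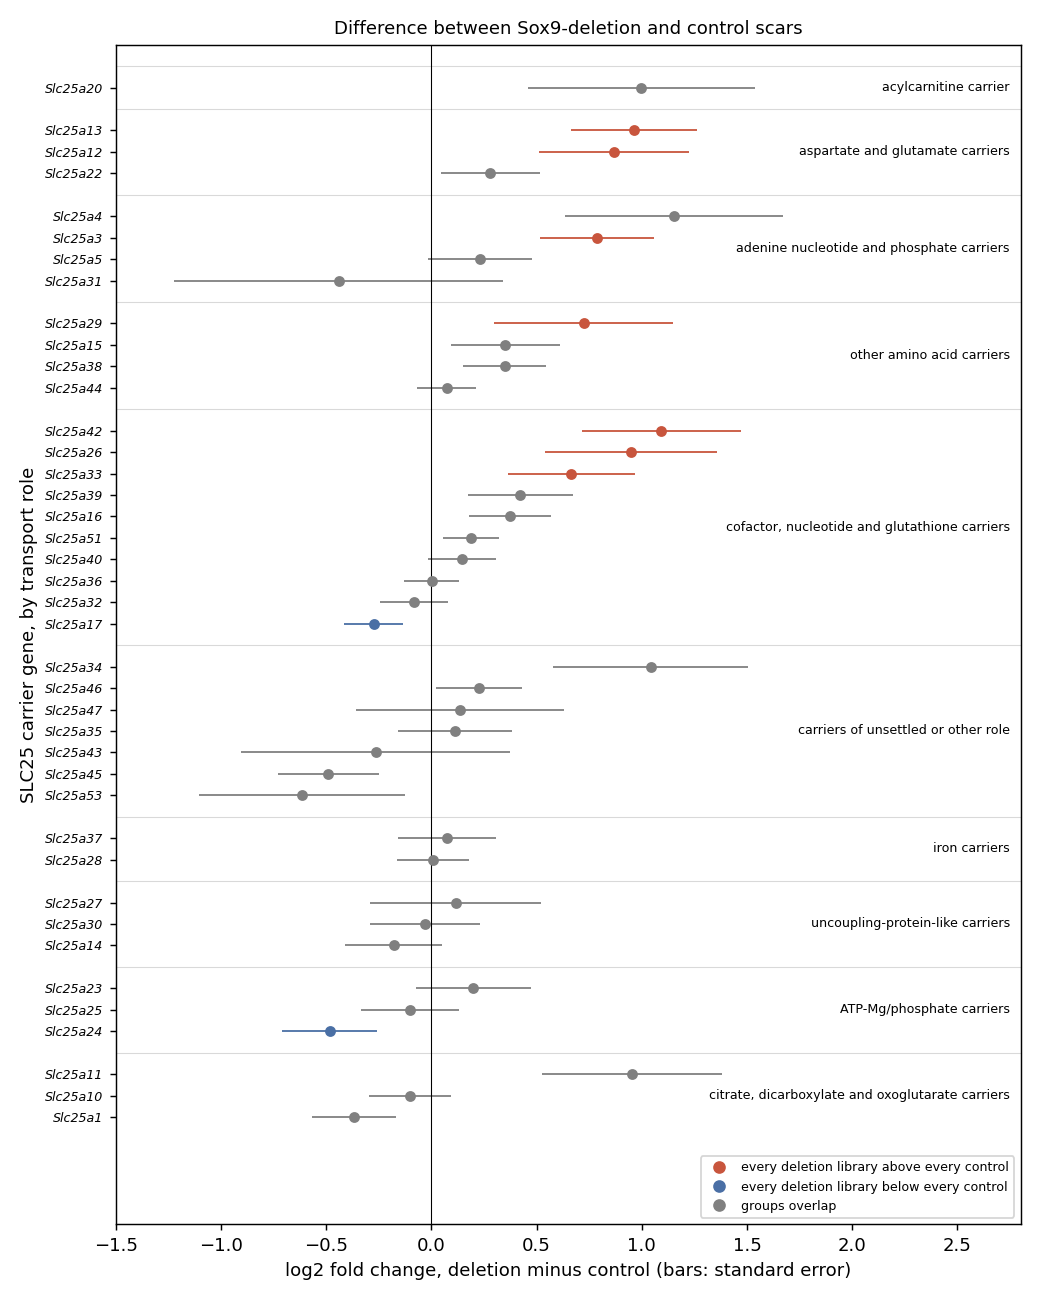
Log2 fold change of 40 SLC25 genes, deletion minus control, with its standard error, grouped by transport role; red marks genes whose 3 deletion libraries all lie above the 3 controls, blue the reverse and grey an overlap. The aspartate/glutamate and acylcarnitine carriers sit furthest to the right as groups (medians of 0.87 and 0.999), and the iron carriers sit at 0.04.

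Slc25a4, the ADP/ATP carrier of heart and skeletal muscle, had the largest log2 fold change of the family. It was at 2447, 1082 and 1398 CPM in controls 1 to 3 and at 6278, 2546 and 2144 CPM in deletion scars 1 to 3. Control replicate 1 lay between deletion replicates 2 and 3, so the groups overlapped. The means were 1642 ± 715 and 3656 ± 2279 CPM (SD, n = 3 each), and the log2 fold change was 1.15 ± 0.52 (SE; edgeR adjusted p = 0.564). Without deletion replicate 1 it was 0.51; the replicate 1 pair alone gave 1.36, and replicates 2 and 3 gave 0.90. Slc25a4 lies on chromosome 8 from 46207341 to 46211009 in mm10.

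Slc25a5, the ADP/ATP carrier of most other tissues, stayed closer to even between the groups. Its levels were 277, 178 and 198 CPM in the control group and 324, 224 and 219 CPM in the deletion group, a log2 fold change of 0.23 ± 0.25 (SE; edgeR adjusted p = 0.73). The highest control exceeded 2 of the 3 deletion scars. Without deletion replicate 1 the value was 0.02. This gene, on chromosome X from 36795597 to 36798808, has 7 other annotated genes with a stretch of at least 200 bases at 90% identity or more, Slc25a5-ps among them, so reads could be shared between them. Slc25a31, the testis ADP/ATP carrier, was near the floor in all libraries, at 1.06, 0.256 and 0.265 CPM in the control group and 0.581, 0.219 and 0.322 CPM in the deletion group.

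The promoters of 4 members are shown because they carry the contrasts above and below: the muscle and the general ADP/ATP carrier, the aspartate/glutamate carrier with the lowest p-value, and Slc25a24, which lay lower in deletion scars. Each is the 250 bases before the RefSeq transcription start (GRCm38.p6), 5′ to 3′ on the gene's strand, with CCAAT and GGGCGG, on either strand, in capitals. The windows are chr8:46211063-46211312 (minus strand) for Slc25a4, chrX:36795347-36795596 (plus) for Slc25a5, chr6:6217174-6217423 (minus) for Slc25a13 and chr3:109122899-109123148 (plus) for Slc25a24.
Slc25a4: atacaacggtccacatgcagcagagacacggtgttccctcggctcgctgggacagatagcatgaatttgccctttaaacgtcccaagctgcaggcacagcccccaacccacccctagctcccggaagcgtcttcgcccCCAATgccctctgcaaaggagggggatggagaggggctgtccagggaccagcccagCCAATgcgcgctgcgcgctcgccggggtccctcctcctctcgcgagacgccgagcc
Slc25a5: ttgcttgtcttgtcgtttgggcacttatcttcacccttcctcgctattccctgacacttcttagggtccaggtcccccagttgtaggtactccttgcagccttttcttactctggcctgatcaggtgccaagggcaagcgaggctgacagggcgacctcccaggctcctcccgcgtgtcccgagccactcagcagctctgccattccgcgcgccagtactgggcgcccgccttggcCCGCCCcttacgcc
Slc25a13: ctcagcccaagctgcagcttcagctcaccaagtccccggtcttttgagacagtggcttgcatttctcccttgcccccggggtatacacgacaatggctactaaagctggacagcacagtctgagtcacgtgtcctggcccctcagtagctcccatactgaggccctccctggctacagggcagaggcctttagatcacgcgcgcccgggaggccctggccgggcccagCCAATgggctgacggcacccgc
Slc25a24: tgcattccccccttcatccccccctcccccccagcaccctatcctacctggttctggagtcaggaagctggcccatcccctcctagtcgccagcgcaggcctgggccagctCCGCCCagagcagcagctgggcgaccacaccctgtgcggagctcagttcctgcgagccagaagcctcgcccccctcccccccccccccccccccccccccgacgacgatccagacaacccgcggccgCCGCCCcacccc
The muscle form holds 2 CCAAT matches and no GGGCGG, Slc25a13 holds 1 CCAAT, and Slc25a5 and Slc25a24 hold only GGGCGG matches, 1 and 2. This split does not extend to other members. Slc25a3 and Slc25a20, with positive log2 fold changes, hold GGGCGG and no CCAAT. Both motifs are held by Slc25a11, Slc25a34 and Slc25a42, which were positive, and by Slc25a1 and Slc25a17, which were negative. A relation between these motifs and the differences was not tested. Windows of this kind were found for 32 members, 41 windows with alternative starts counted. CCAAT was in 20 of these 41, against 33.8% of all 32851 RefSeq windows, and GGGCGG in 31, against 32.7%. The ERR element TNAAGGTCA was in 0 of 41 (1.14% of all windows), the NRF1 element in 2 (3.74%), the GABP element CCGGAAGT in 1 (2.88%) and TATAAA in 0 (12.4%), each searched on both strands; none of these motifs contains another. The member windows had a median GC content of 58.0%, against 52.4% for all windows.

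Slc25a3, which carries phosphate into the matrix for ATP synthesis, was higher in every deletion scar. It was at 269.7, 222 and 303 CPM in the control group and 630.3, 393 and 348 CPM in the deletion group, on chromosome 10 from 91116578 to 91123963. The log2 fold change was 0.79 ± 0.27 (SE; edgeR adjusted p = 0.564), the replicate 1 pair giving 1.22 and replicates 2 and 3 giving 0.48. It was 0.47 without deletion replicate 1.

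The carriers of the malate-aspartate shuttle, which passes cytosolic reducing equivalents to the matrix, lay higher in deletion scars. Slc25a13 (citrin, chromosome 6 from 6041218 to 6217173) was at 104, 67.9 and 74.1 CPM in the control group and 219, 152 and 107 CPM in the deletion group. Slc25a12 (aralar, chromosome 2 from 71274295 to 71367554) was at 114, 68.9 and 80.7 against 247, 118 and 115 CPM. Neither gene overlapped between the groups, although in both the highest control came close to the lowest deletion scar. The log2 fold changes were 0.96 ± 0.30 for Slc25a13, with the lowest unadjusted p of the family (0.0159), and 0.87 ± 0.36 for Slc25a12 (SE; edgeR adjusted p = 0.564 for both). In replicates 2 and 3 they were 0.85 and 0.62, and in the replicate 1 pair 1.08 and 1.12. They were 0.66 and 0.40 when deletion replicate 1 was left out. The oxoglutarate/malate carrier Slc25a11, the other exchanger of the shuttle, was at 149, 78.0 and 102 against 348, 158 and 130.1 CPM. Here control replicate 1 exceeded deletion replicate 3, and the log2 fold change was 0.95 ± 0.43 (SE), or 0.39 without deletion replicate 1. The gene shares exonic bases with Rnf167 on the opposite strand, and whether strand was used in counting is not given in the sources. The glutamate carrier Slc25a22 was at 9.63, 7.53 and 10.5 against 14.3, 9.18 and 10.2 CPM, a log2 fold change of 0.28 ± 0.23 (SE) with overlapping groups, and 0.063 without deletion replicate 1.

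Slc25a20, which exchanges acylcarnitines for carnitine on the way to beta-oxidation, was at 69.1, 29.1 and 35.6 CPM in the control group and 159, 62.4 and 46.2 CPM in the deletion group. Control replicate 1 exceeded deletion replicates 2 and 3. The log2 fold change of 0.999 ± 0.54 (SE; edgeR adjusted p = 0.565) became 0.28 when deletion replicate 1 was left out, while the replicate 1 pair gave 1.20 and replicates 2 and 3 gave 0.73. Slc25a34, a carrier with no settled substrate, was at 42.4, 20.6 and 26.3 against 104, 42.9 and 36.4 CPM (1.04 ± 0.47, SE). Its control replicate 1 exceeded deletion replicate 3, so these groups overlapped too, and without deletion replicate 1 the value was 0.41.

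**Figure D3:**
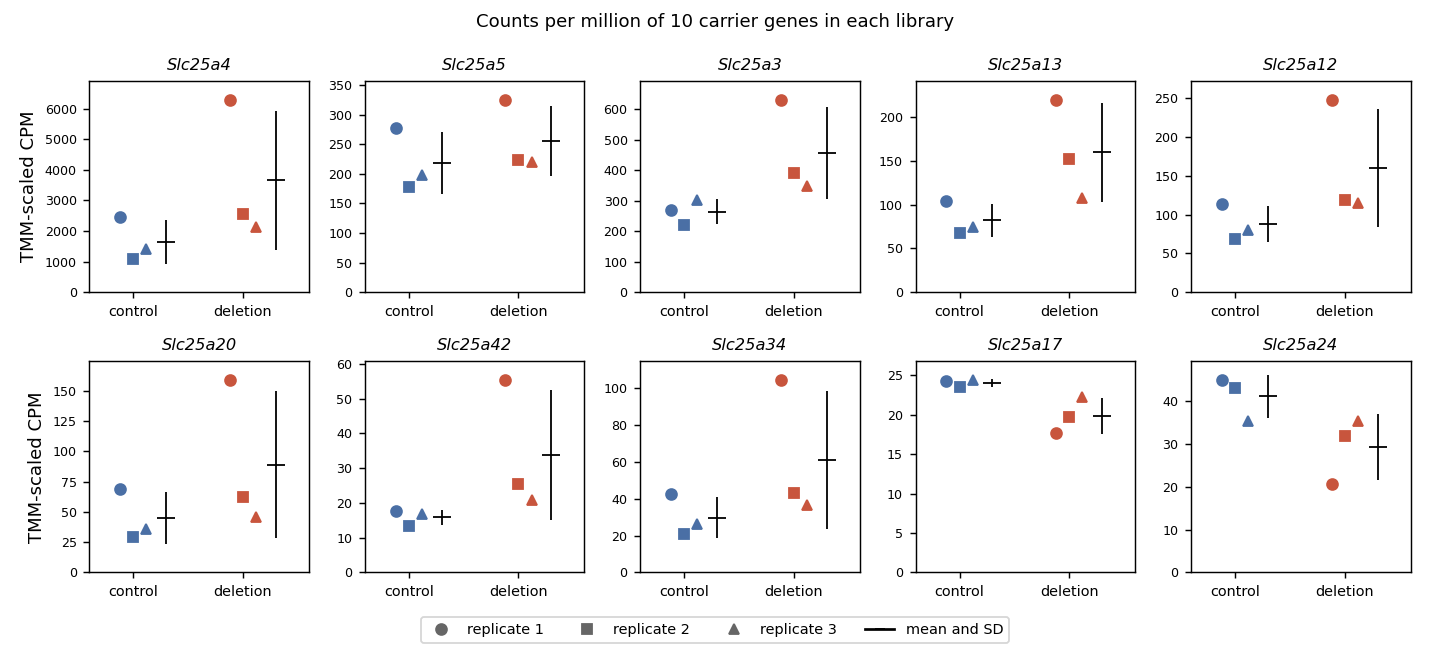
TMM-scaled CPM of 10 carrier genes in each library; symbols give the replicate, and the bar beside each group its mean and SD (n = 3). Deletion replicate 1 is the highest point in 8 panels and the lowest in the Slc25a17 and Slc25a24 panels, and in replicates 2 and 3 the groups are closer, as for Slc25a4 at 2546 and 2144 against 1082 and 1398 CPM.

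Of 11 carriers of cofactors, nucleotides and glutathione, 9 were positive, with a median of 0.37. Slc25a42, a coenzyme A carrier on chromosome 8 from 70184340 to 70212281, was at 17.5, 13.3 and 16.7 CPM in the control group and 55.3, 25.4 and 20.9 CPM in the deletion group. All 3 controls lay below all deletion scars. The log2 fold change was 1.09 ± 0.38 (SE; edgeR adjusted p = 0.564), the replicate 1 pair giving 1.65 and replicates 2 and 3 giving 0.61. It was 0.54 without deletion replicate 1. The S-adenosylmethionine carrier Slc25a26 (7.85, 6.07 and 6.52 against 22.4, 8.79 and 8.45 CPM) and the pyrimidine nucleotide carrier Slc25a33 (8.74, 7.02 and 8.31 against 18.8, 10.3 and 9.22 CPM) were also higher in each deletion scar than in any control. Their log2 fold changes of 0.95 and 0.67 were 0.33 and 0.27 without deletion replicate 1, and both share exonic bases with a gene on the opposite strand. The glutathione carrier Slc25a39 was at 47.5, 36.8 and 35.9 against 73.7, 45.9 and 41.5 CPM, and its relative Slc25a40 at 14.6, 15.3 and 12.7 against 14.8, 14.5 and 17.9 CPM. Slc25a16, which is linked to coenzyme A, was at 27.0, 23.5 and 21.7 against 38.3, 30.6 and 24.7 CPM. Without deletion replicate 1 the log2 fold change of Slc25a39 went from 0.42 to 0.12 and that of Slc25a16 from 0.37 to 0.19. The other pyrimidine nucleotide carrier, Slc25a36, was the steadiest gene of the family, at 43.6, 48.2 and 42.8 against 41.1, 44.0 and 49.6 CPM, with a coefficient of variation of 7.35% over the 6 libraries.

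A negative log2 fold change was seen in 12 members, and 2 of these had groups that did not overlap. The ATP-Mg/phosphate carrier Slc25a24, on chromosome 3 from 109123149 to 109168409, was at 44.8, 43.0 and 35.4 CPM in the control group and 20.6, 31.9 and 35.4 CPM in the deletion group. Control replicate 3 and deletion replicate 3 were equal to 3 digits, so the groups were barely apart. Slc25a17, a peroxisomal carrier of cofactors such as coenzyme A, was at 24.3, 23.5 and 24.4 against 17.7, 19.7 and 22.3 CPM, without overlap. Log2 fold changes were -0.48 ± 0.22 for Slc25a24 and -0.27 ± 0.14 for Slc25a17 (SE; edgeR adjusted p = 0.564 and 0.565), and without deletion replicate 1 the former was -0.30. The citrate carrier Slc25a1, which exports citrate for lipid synthesis, was at 11.7, 12.8 and 12.2 against 7.60, 11.8 and 9.02 CPM (-0.37 ± 0.20, SE). Its log2 fold change was -0.25 without deletion replicate 1 and -0.56 without deletion replicate 2. Slc25a45 (10.7, 9.98 and 14.7 against 6.70, 10.3 and 8.17 CPM) and the low-level X-linked Slc25a53 (0.779, 0.731 and 1.36 against 0.369, 0.874 and 0.604 CPM) overlapped between the groups. Both were highest in control replicate 3, the library with high Xist. Without it the log2 fold change of Slc25a53 went from -0.62 to -0.26 and that of Slc25a45 from -0.49 to -0.29.

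The ornithine carrier Slc25a15 was at 10.6, 8.48 and 8.94 against 16.5, 9.88 and 9.46 CPM, and the glycine carrier Slc25a38 at 9.85, 10.3 and 12.3 against 16.9, 11.7 and 12.9 CPM. Slc25a29, a carrier of basic amino acids, was at 1.45, 1.68 and 1.62 against 4.33, 1.75 and 1.89 CPM. Its groups did not overlap, but deletion replicate 1 alone stood clear of the controls, and the log2 fold change of 0.72 ± 0.42 (SE) was 0.12 in replicates 2 and 3.

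The other ATP-Mg/phosphate carriers overlapped between the groups. Slc25a23 was at 129, 91.5 and 74.2 CPM in the control group and 147, 91.0 and 100.3 CPM in the deletion group, and Slc25a25 at 7.90, 8.85 and 10.96 against 10.5, 6.64 and 8.85 CPM. The mitoferrins, which import iron for heme and iron-sulfur clusters, were nearly level. Slc25a28 was at 16.8, 19.9 and 22.6 against 17.3, 21.2 and 21.1 CPM, and Slc25a37, the erythroid form, at 24.9, 36.7 and 38.4 against 26.9, 37.2 and 41.3 CPM. Replicate 1 of each group was the lowest library for both mitoferrins. Slc25a44, a carrier of branched-chain amino acids, was at 27.2, 27.5 and 27.5 against 33.1, 26.7 and 26.6 CPM. Slc25a46, which sits in the outer membrane, was at 110.3, 77.3 and 76.9 against 122, 96.2 and 90.8 CPM, and the uncoupling-protein-like Slc25a30 at 5.68, 9.76 and 9.90 against 7.18, 8.35 and 9.38 CPM. The dicarboxylate carrier Slc25a10 was at 6.46, 6.25 and 8.28 against 6.65, 6.77 and 6.16 CPM, the folate carrier Slc25a32 at 16.2, 17.4 and 15.8 against 13.2, 15.5 and 17.9 CPM, and the NAD carrier Slc25a51 at 44.8, 46.7 and 49.4 against 60.2, 52.5 and 47.9 CPM. In each of these the groups overlapped. The 13 members not picked by the naming rule had log2 fold changes from -0.27 to 0.95, 9 of them positive, at means between 0.948 and 50.3 CPM.

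Ratios of related carriers within a library do not depend on its scaling, and 8 pairs were compared. Per kb of transcript, Slc25a4 stood above Slc25a5 by 10.4-, 7.11- and 8.25-fold in controls 1 to 3 and by 22.7-, 13.3- and 11.4-fold in deletion scars 1 to 3. Every deletion scar exceeded every control, with a difference in mean log2 ratio of 0.84. The exact permutation test, two-sided, gave p = 0.1, the smallest that 3 against 3 allows, and 0.4 after adjustment over the 8 pairs. The share of Slc25a5 in the summed carrier level per kb was 7.73% ± 0.789 in controls and 4.995% ± 1.34 in deletion scars (SD, n = 3 each), while that of Slc25a4 was 65.4% ± 5.92 and 73.7% ± 5.19. Control replicate 1, at 72.1%, lay within the range of the deletion scars for Slc25a4.

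Slc25a42 against Slc25a16 was the other pair without overlap. Per kb the ratio was 0.642, 0.562 and 0.761 in controls and 1.43, 0.823 and 0.838 in deletion scars, a log2 difference of 0.61 (exact permutation p = 0.1, two-sided, 0.4 adjusted). The aspartate/glutamate pair Slc25a12/Slc25a13 differed by -0.12 in mean log2 ratio, the mitoferrins Slc25a28/Slc25a37 by -0.065 and the glutathione carriers Slc25a39/Slc25a40 by 0.25. Slc25a33/Slc25a36 differed by 0.60, Slc25a23/Slc25a24 by 0.72 and Slc25a24/Slc25a25 by -0.41. In these 6 pairs the groups overlapped, and the exact permutation p ran from 0.3 to 0.8.

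**Figure D4:**
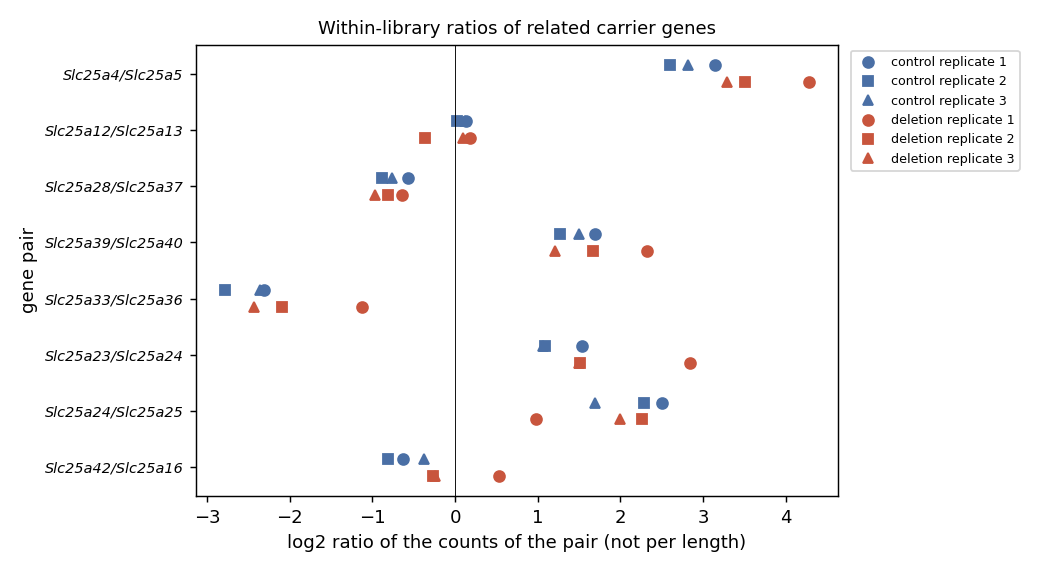
Log2 ratio of the counts of 8 pairs of related carriers in each library, not corrected for length; symbols give the replicate and colours the group. The 3 deletion scars lie to the right of the 3 controls for Slc25a4/Slc25a5 (differing by 0.84 on average) and Slc25a42/Slc25a16 (0.61), and the other pairs overlap.

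Genes that work beside the carriers were examined as 4 further lists, in which edgeR called no gene at an adjusted p of 0.05. DESeq2 called 3 genes of these lists, among them the regulators Ppara and Ppargc1a, where it called 0.352% of all genes. All 10 measured genes of the import route that inserts carriers into the inner membrane had positive log2 fold changes, with a median of 0.35. Without TMM 8 of 10 were positive (median 0.20), and without deletion replicate 1 also 8 (median 0.15). The receptor gene Tomm70a was at 82.8 ± 9.70 CPM in the control group and 99.8 ± 6.68 CPM in the deletion group, the TIM22 subunit gene Timm29 at 55.7 ± 9.31 against 75.5 ± 24.5 CPM, and the small chaperones Timm8a1 and Timm8b at 49.3 ± 8.87 against 64.3 ± 14.9 CPM and 34.0 ± 6.92 against 57.4 ± 21.2 CPM (SD, n = 3 each). Timm8b had the largest difference of the list (0.76 ± 0.29, SE) and Timm10b the smallest (0.06 ± 0.14, SE). Groups did not overlap, deletion higher, in 2 of the 10, against 8.87% of all genes.

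Of 25 other mitochondrial transporters, 16 were positive, with a median of 0.24, or 0.16 without deletion replicate 1. The outer membrane channel gene Vdac1 was at 511, 354 and 413 CPM in the control group and 966, 586 and 522 CPM in the deletion group, higher in every deletion scar (0.70 ± 0.29, SE). Vdac2 was at 354, 265 and 309.7 against 463, 379 and 351 CPM. Uncoupling protein genes outside the family pattern of names were also measured. Ucp2, common in leukocytes, was at 370.0, 190.1 and 414 against 188, 223 and 225 CPM, and Ucp3, the muscle form, at 6.18, 0.366 and 1.19 against 30.8, 2.754 and 2.74 CPM. Both overlapped between the groups.

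Among 23 enzymes that share substrates with the carriers, 16 were positive and the median was 0.70, or 0.28 without deletion replicate 1. Unadjusted, 9 had p below 0.05 and were higher, against 5.3% of all genes, and 1 was lower, against 3.04%. Ckmt2, the sarcomeric mitochondrial creatine kinase that works beside the ADP/ATP carrier, was at 878, 345 and 493 CPM in the control group and 2339, 1113 and 824 CPM in the deletion group, a log2 fold change of 1.32 ± 0.51 (SE). Control replicate 1 lay above deletion replicate 3. The malate dehydrogenase gene Mdh1 and the citrate synthase gene Cs, at 0.84 ± 0.32 and 0.84 ± 0.33 (SE), were higher in each deletion scar than in any control. Ckmt1, the ubiquitous mitochondrial creatine kinase, was at 5.01, 5.05 and 0.696 against 0.686, 1.005 and 3.62 CPM.

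Of 12 transcriptional regulators of carrier and mitochondrial genes, 10 were positive, with a median of 0.50, or 0.20 without deletion replicate 1. The nuclear receptor gene Ppara was at 15.9, 16.0 and 19.6 CPM in the control group and 63.1, 37.2 and 30.7 CPM in the deletion group, and the coactivator gene Ppargc1a at 59.4, 47.3 and 49.7 against 131, 104 and 86.8 CPM. All deletion scars exceeded all controls in both genes, with log2 fold changes of 1.35 ± 0.29 and 1.04 ± 0.19 (SE; edgeR adjusted p = 0.564 for both). DESeq2 gave adjusted p = 0.0247 and 0.00651 for them, and 0.000106 and 2.02e-11 with the batch term, an alternative chosen after seeing the data. With that term DESeq2 called 12.9% of all genes. The edgeR model with the batch term gave adjusted p = 0.0683 and 0.0614. Without deletion replicate 1 their log2 fold changes were 0.97 and 0.86 (edgeR adjusted p = 0.908 for both). Thra (-0.08 ± 0.17, SE) and Gabpa (0.09 ± 0.16, SE) were close to even.

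Cell type markers were read beside the carriers. All 15 cardiomyocyte markers were detected, none at 0 in any library, and 14 had positive log2 fold changes. Their median was 0.88, or 0.48 without deletion replicate 1. Their summed level ran from 62062 to 98018 CPM in controls and from 91126 to 174454 CPM in deletion scars; the myosin gene Myh6 alone was at 23326, 14020 and 14945 against 53110, 21118 and 22199 CPM. Control replicate 1 and deletion replicate 1 were the highest of their groups in this sum and also for Slc25a4 and Slc25a20. Among all 41 carriers, control replicate 1 was the highest control in 20. Deletion replicate 1 was the highest of the 6 libraries in 23 carriers and the lowest in 9. The list score, the mean log2 CPM relative to the 6 libraries, was 0.04, -0.69 and -0.53 in controls and 0.98, 0.14 and 0.05 in deletion scars, beside -0.01, -0.24, -0.09, 0.34, -0.003 and 0.01 for the 41 carriers. All 12 fibroblast markers and all 10 leukocyte markers were negative, with medians of -0.43 and -0.57, summed levels of 17683 to 20624 against 8128 to 17405 CPM and of 1105 to 2425 against 669 to 1414 CPM. Without deletion replicate 1 these medians were -0.17, with 1 fibroblast marker positive, and -0.32. The fibroblast sum of 8128 CPM was that of deletion replicate 1, and deletion replicates 2 and 3 were at 17405 and 16467.5 CPM. The 7 endothelial markers had a median of 0.06, or -0.18 without deletion replicate 1, at 697 to 828 against 692 to 1316 CPM. Skeletal muscle markers had a median of -0.84 over 9 genes, at 282 to 1165 against 641 to 4381 CPM in sum, where Ckm and Acta1, also expressed in the heart, hold the highest levels. The 7 erythroid markers, at 1567 to 3526 against 1953 to 8503 CPM, had a median of 1.02, and 5 adipocyte markers had a median of -4.22, at 246 to 668 against 304 to 925 CPM, with 2 of them at 0 in some library. The adipocyte score was 2.93 in control replicate 1 and at most 0.03 in every other library. In replicates 2 and 3 the adipocyte median was -0.55. The erythroid score was 1.62 in deletion replicate 2 and at most 0.24 elsewhere. What part these markers have in the carrier values was not tested.

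**Figure D5:**
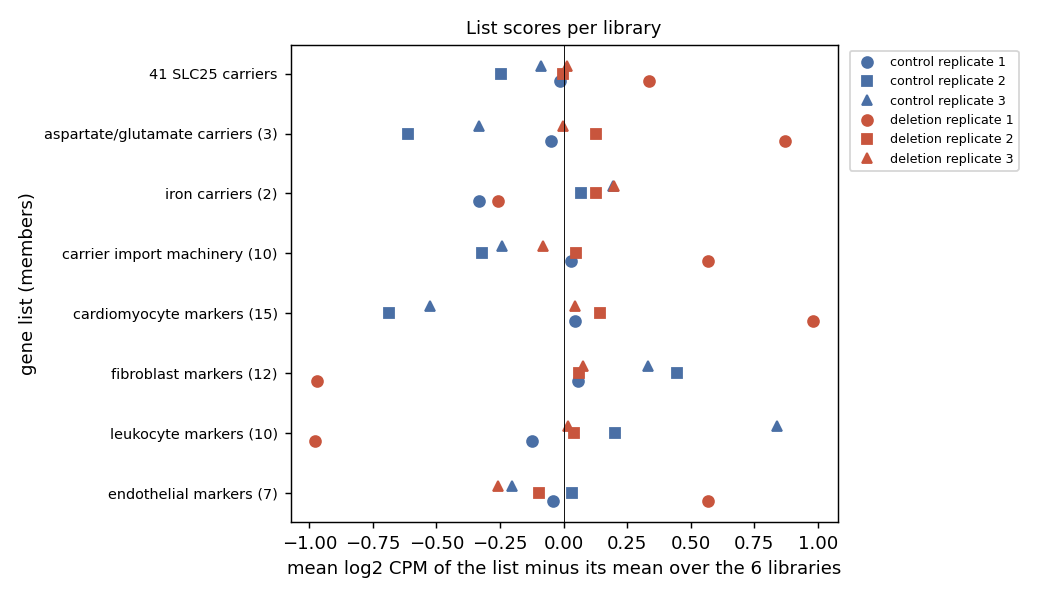
Score of each gene list in each library, as the mean log2 CPM of its members less their mean across all libraries; symbols give the replicate and colours the group. Deletion replicate 1 is the highest library for the carriers (0.34), the aspartate/glutamate carriers and the cardiomyocyte markers (0.98) and the lowest for fibroblast and leukocyte markers, while both mitoferrins are lowest in replicate 1 of each group.

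When the edgeR model also held the batch, 14 members had an unadjusted p below 0.05 and were higher in deletion scars (13.8% of all genes), and 2 were lower (8.87%). The lowest adjusted p of a member was 0.0641, for Slc25a13, and 0.00677% of all genes passed. DESeq2 called 0 members without the batch term, where it called 0.352% of all genes. With the term it called 10 members, each with the higher mean in the deletion group; 8.83% of all genes were called in that direction. Among these were Slc25a3, Slc25a4, Slc25a11, Slc25a12, Slc25a13, Slc25a20, Slc25a26, Slc25a34 and Slc25a42, with Slc25a4 at 1.07 (DESeq2 adjusted p = 5.51e-07). In the authors' deposited table, 34 of 41 members had a NOISeqBIO probability above 0.95, as had 79.0% of all genes, and 24 of 41 (58.5%) also had a positive deposited log2 fold change, against 35.0% of all genes. Slc25a4 had 1.05 there, from the authors' deposited table, and Slc25a13 had 0.92.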

How the data were processed

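RNA of infarct scar was sequenced in 6 libraries, 3 control and 3 deletion; per the labels' protocols, a ScriptSeq kit was used on 100 ng of total RNA, while the design text speaks of polyA sequencing. The authors deposited raw counts for each gene, per the file headers. The submitters' processing notes name the tools deepTools, STAR and Trim Galore, with mm10 as the build; which tool counted reads is not given in the sources used here, nor is the use of strand. The authors also deposited signal values called TMM, a log2 fold change equal to the ratio of their group means, and a NOISeqBIO score, per the file headers. By the values, the deposited signal differs from the counts by 1 factor per library among replicates 2 and 3, and among replicate 1 of both groups, but by gene-dependent factors between these sets: for control replicates 1 and 2 the log2 factor ratio ran from 0.78 to 2.40 between the 5th and 95th percentile of genes.

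Counts were analysed in R 4.3.3 with edgeR 4.0.16 (TMM, filterByExpr, robust quasi-likelihood F test, genotype only, 4 residual degrees of freedom, Benjamini-Hochberg adjustment, threshold 0.05), checked on simulated data. DESeq2 1.42.0, other scalings and filters, a batch term, a replicate block and leaving out each library were alternatives. The pair Slc25a22/Slc25a18 and 7 of the listed carriers were not analysed here, and 1 member that counts and medians include is not reported by name. Values per library are given for the 8 most abundant members per kb, the 6 largest and 6 smallest log2 fold changes, the lead of each role group and the paired genes. Slc25a10, Slc25a15, Slc25a26, Slc25a29, Slc25a32, Slc25a38 and Slc25a51 fall outside that rule. These, Xist, Ddx3y and Rn45s were chosen after their values were seen. Of each pathway list the 3 most abundant genes and the largest and smallest log2 fold change could be named, and of each marker list the 2 most abundant. Levels per kb use the deposited transcript length. Overlaps and copies were taken from GENCODE vM21 (blastn 2.17.0), where 12 of 41 members share exonic bases with another gene, 10 of them on the opposite strand. A copy of at least 200 bases at 90% identity or more in another gene was found for 10 members. Slc25a3, Slc25a5, Slc25a12, Slc25a36, Slc25a40, Slc25a42 and Slc25a51 are among these, and reads could be shared there too. Members and lists were chosen with earlier results of these data known. Depth ran from 18538171 to 55523974 counts, where totals of the even-count libraries may be doubled, and the standard errors give the precision reached.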

Additional observations from a re-analysis of the deposited data

How the results depend on the processing

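The count of SLC25 genes called by edgeR was 0 under each scaling, filter, block, batch term and left-out library tried, and 10 with DESeq2 and the batch term, an alternative chosen after seeing the data. Over all genes, edgeR called 0, or 1 with the batch term, and DESeq2 called 52, or 1916 with the term. Members positive numbered 23 to 32 of 41. Groups did not overlap in 17 members (higher) and 6 (lower) with replicates 2 and 3 only, where 24.2% and 24.7% of all genes do so. When 1 library was left out the counts were 8 to 17 and 2 to 5. Smaller groups separate more often by construction, and the share of all genes was not taken there. Those counts therefore cannot be read as a result about the carriers.

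Medians of the ATP-Mg/phosphate group were -0.26 without TMM, -0.24 with replicates 2 and 3 only and 0.19 in the replicate 1 pair, and -0.27 to 0.052 over left-out libraries. In the replicate 1 pair the other amino acid, uncoupling-protein-like and unsettled carriers had medians of 0.71, 0.34 and -0.51. Without control replicate 3 and deletion replicate 1 together, the medians were 0.35 for aspartate and glutamate carriers, 0.15 for Slc25a20, 0.13 for cofactor carriers, 0.21 for the substrate-sharing enzymes and 0.14 for the regulators. With 1 library left out they ran from 0.40 to 1.097 for aspartate and glutamate carriers, 0.28 to 1.46 for Slc25a20, 0.18 to 0.52 for cofactor carriers, 0.28 to 0.90 for the enzymes, 0.20 to 0.64 for the regulators and -0.32 to 0.24 for the unsettled carriers.

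Several log2 fold changes had the opposite sign, among them those of Slc25a31 and Slc25a43, at -0.44 and -0.27 with all libraries. Without control replicate 3 and deletion replicate 1 these were Slc25a5 (-0.041), Slc25a23 (-0.21), Slc25a46 (-0.00593), Slc25a44 (-0.040), Slc25a30 (0.18), Slc25a10 (0.021), Slc25a35 (-0.058) and Slc25a43 (0.57), and Slc25a31, at -1.12, kept its sign. With replicates 2 and 3 only they were Slc25a31 (0.041), Slc25a28 (-0.018) and Slc25a44 (-0.057). Without TMM they were Slc25a28 (-0.12), Slc25a44 (-0.076), Slc25a37 (-0.054), Slc25a36 (-0.13), Slc25a27 (-0.017) and Slc25a35 (-0.040). In the replicate 1 pair they were Slc25a30 (0.34), Slc25a36 (-0.086), Slc25a25 (0.40), Slc25a10 (0.043) and Slc25a47 (-0.51), and in the authors' deposited table Slc25a28 (-0.011) and Slc25a36 (-0.021). Slc25a36 was at -0.000775 with the stricter filter, and Slc25a30 at 0.00172 with the replicate block and 0.00204 with the batch term. Over left-out libraries the ranges crossing 0, among members picked by the naming rule, were -0.047 to 0.45 (Slc25a23), -0.82 to 0.45 (Slc25a31), -0.093 to 0.12 (Slc25a28), -0.047 to 0.13 (Slc25a44), -0.24 to 0.099 (Slc25a30), -0.095 to 0.22 (Slc25a37), -0.076 to 0.057 (Slc25a36), -0.27 to 0.052 (Slc25a25), and for the pairs -0.22 to 0.044 (Slc25a12/Slc25a13), -0.15 to 0.022 (Slc25a28/Slc25a37) and -0.047 to 0.51 (Slc25a39/Slc25a40). Of the 13 members outside that rule, Slc25a10, Slc25a27, Slc25a32, Slc25a35, Slc25a43 and Slc25a47 had the opposite sign without at least 1 library. Without deletion replicate 1 these were Slc25a32 (0.00795), Slc25a35 (-0.11) and Slc25a43 (0.083). Slc25a5 ran from 0.017 to 0.44 and Slc25a46 from 0.079 to 0.42. The cause was not tested.

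Replicate numbers are not stated to pair the libraries: deviations of same-numbered libraries from their group means correlated at 0.48, 0.01 and 0.18. Control replicate 3 with deletion replicate 2 gave 0.39, control replicate 2 with deletion replicate 3 gave 0.31, and the remaining combinations were negative. With the replicate block 0 members were called, 30 were positive and the median was 0.18. Some differences of several standard errors were not called by edgeR, such as Ppargc1a at 1.04 ± 0.19 (SE, edgeR adjusted p = 0.564). In the same libraries DESeq2 without the batch term gave it an adjusted p of 0.00651. Why the methods differ was not tested.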
